A study of Mus musculus with 48 samples.

Results

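A set of 8 genes was followed after ischemia-reperfusion injury (IRI). Their products move inositol and other small organic solutes across renal cells, make them, break them down or respond to hypertonic stress. The genes were taken as a list of symbols with no threshold on measured values, drawn up with earlier results of these data known. All 8 were found among the 14320 genes and unmatched transcripts measured. The list held Miox, Slc5a11, Slc5a3, Slc6a6, Slc6a12, Akr1b3, Nfat5 and Sgk1. RNA of the renal cortex was sequenced from male C57BL/6 mice of 6 to 8 weeks, whose left renal pedicle had been clamped for 20 minutes (mild model) or 40 minutes (severe model). Clamped left kidneys (IRI) were set against right kidneys of the same mice (control, not clamped) on day 1 and day 3, with 6 mice in each of the 4 combinations of model and day and 48 libraries in all. The right kidney was removed as the self-control, so every left kidney was also a single remaining kidney. The methods describe that removal at the time of surgery while the labels give each control the day of its left kidney. The effects of clamping, of the operation and of losing the right kidney therefore cannot be told apart.

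Renal cells face swings in salt and urea, and they hold their volume by storing compatible solutes such as myo-inositol, betaine, taurine, sorbitol and glycerophosphocholine. The transcription factor NFAT5 (also called TonEBP) binds tonicity-responsive enhancers and drives the genes that take up or make these solutes, above all in the thick ascending limb and the medulla. In the proximal tubule of the cortex, myo-inositol is reabsorbed from the filtrate and broken down by MIOX, which opens its ring to give glucuronate for the pentose route.

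Promoter sequence was examined for the members because several of them are textbook targets of NFAT5 or of corticosteroid receptors. RefSeq windows (build GRCm38.p6, 250 bases before each start site and a short stretch after it) matched 6 of the 8 genes, with 5 windows for Slc6a12, 6 for Sgk1 and 1 each for Miox, Slc5a3, Nfat5 and Slc5a11. Both strands were searched for the tonicity-responsive enhancer (TonE), the palindromic glucocorticoid response element (AGAACA and TGTTCT with any 3 bases between them) and the box TATAAA. The stretches printed here hold the only TonE match in the windows of Slc6a12, the only match to the glucocorticoid element in the windows of any member, and the single box of Miox, with the matched letters in capitals.
Slc6a12 (TonE), chr6:121342439-121342569, plus strand: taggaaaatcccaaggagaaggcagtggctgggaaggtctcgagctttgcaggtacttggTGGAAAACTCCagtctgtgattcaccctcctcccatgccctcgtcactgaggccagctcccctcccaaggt
Sgk1 (glucocorticoid response element), chr10:21993641-21993775, plus strand: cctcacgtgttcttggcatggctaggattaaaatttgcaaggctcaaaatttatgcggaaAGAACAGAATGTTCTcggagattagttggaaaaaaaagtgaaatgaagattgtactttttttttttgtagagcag
Miox (TATAAA), chr15:89334373-89334472, plus strand: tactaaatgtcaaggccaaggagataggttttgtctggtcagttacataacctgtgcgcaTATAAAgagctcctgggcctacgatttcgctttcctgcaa

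The TonE match began 75 bases before a RefSeq start site of Slc6a12 at position 121342574, upstream of the transcripts in the expression table, of which the first began at 121343076. A TonE was present in 4.96% of all 32851 promoter windows, and the windows of Slc5a3, Nfat5, Miox, Slc5a11 and Sgk1 held none. The TonE search letters include TGGAAA, which 21.4% of windows held. The glucocorticoid element stood 189 bases before the start site at 21993890, which is also the start of Sgk1-202, the transcript that carried most of the measured Sgk1, and was found in 3 of the 32851 windows. The box of Miox lay 40 bases before its RefSeq start site and inside the first exon of the longer Miox-201 model, and TATAAA occurred in 13.6% of windows. A match describes letters only.

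Read totals were not used here, and depth was estimated from the spacing of low values at 9534736 to 16069797 read pairs a library. Injury markers (Havcr1, Lcn2, Krt20, Vcam1 and Sox9) were high in every IRI kidney of the severe model, where their summed level ran from 580 to 2242 FPKM in 12 kidneys against 3.13 to 13.6 FPKM in the 24 control kidneys. In contrast, the 12 mild IRI kidneys ranged from 10.8 to 1155 FPKM and held kidneys close to control. Replicate 6 of the severe day 1 IRI kidneys stood apart, with 675 FPKM of injury markers against 1648 to 2242 FPKM in the other 5 and with 604 FPKM of macrophage markers against 100.5 to 322 FPKM. Differences of Miox, Slc5a11, Akr1b3 and Sgk1 that include it are given with and without it. In bulk tissue, fewer cells of a type and less RNA per cell cannot be told apart.

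In control cortex Miox was by far the most abundant member. Its level per length was 1162 ± 156 FPKM (SD, n = 24 control kidneys), rank 21 of all genes. Slc6a6 followed at 85.6 ± 19.3 FPKM, Sgk1 at 46.4 ± 19.1 FPKM, Akr1b3 at 31.6 ± 4.74 FPKM, Slc5a11 at 25.5 ± 2.70 FPKM and Slc5a3 at 21.0 ± 8.45 FPKM. The ranges of these last 4 genes overlapped one another, so their order is not clear from single kidneys. Nfat5 stood at 4.56 ± 2.05 FPKM. Slc6a12 was lowest, at 0.740 ± 1.24 FPKM, and was listed at 0 in 3 control kidneys and 7 of all 48.

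**Figure D1:**
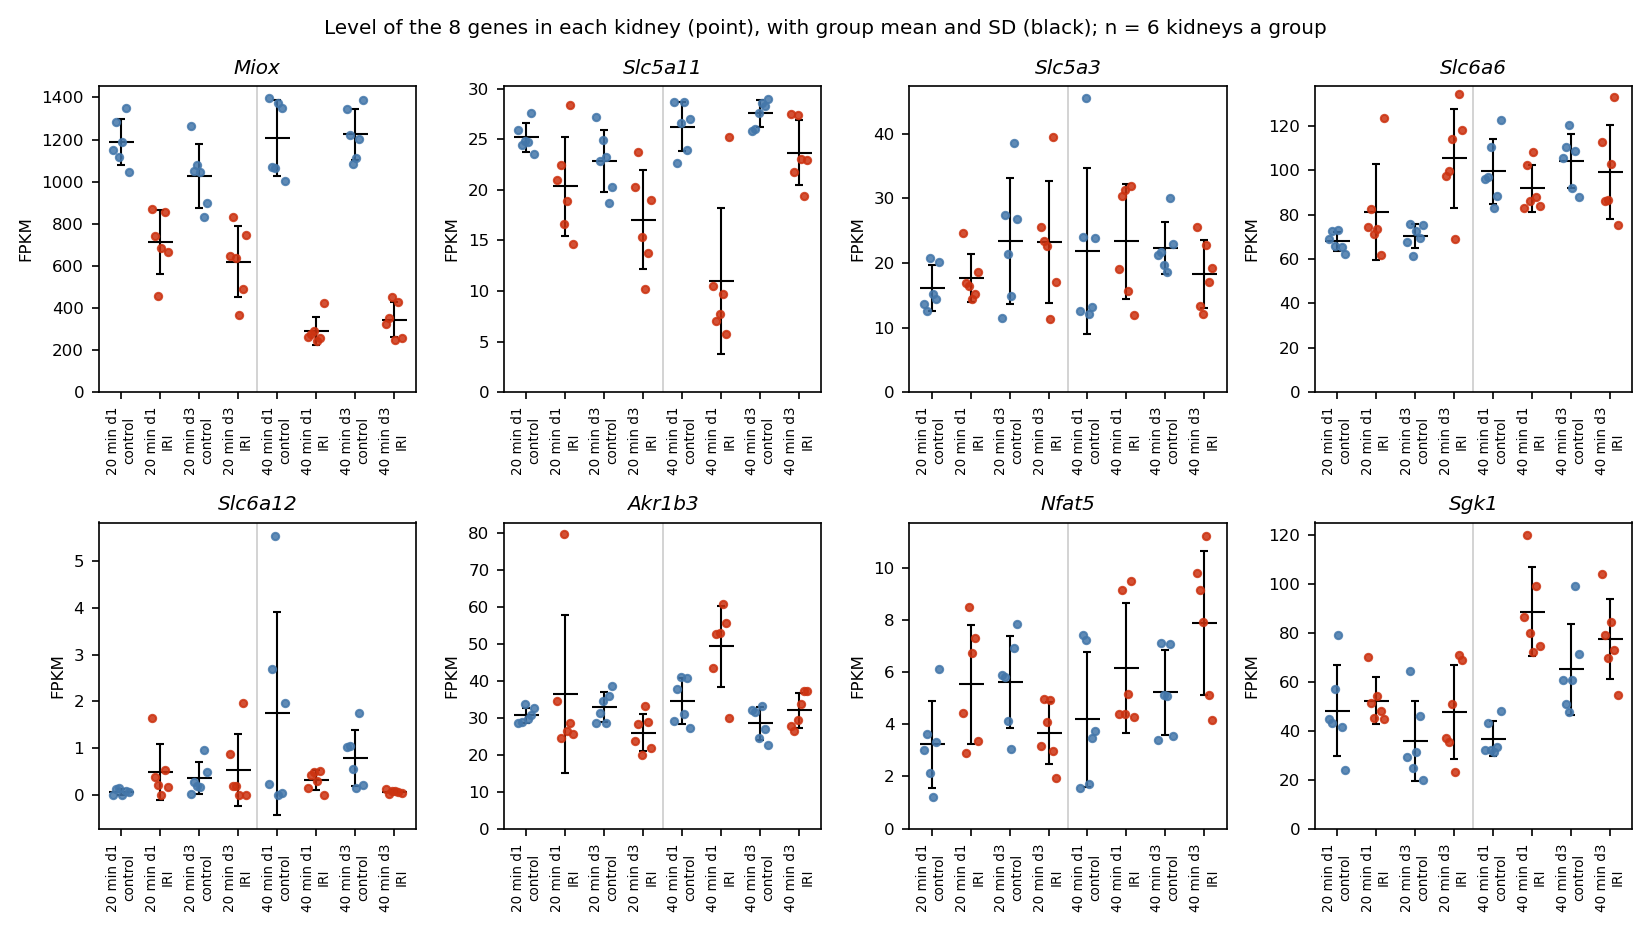
Level in FPKM (fragment counts scaled by transcript length and library size, linear axis) of each of the 8 genes in each of the 48 kidneys, by model (20 or 40 min), day (d1, d3) and kidney; points are kidneys, black marks are the group mean with the SD of 6 kidneys. Miox in severe IRI kidneys (243 to 454 FPKM) lies below every control kidney (831 FPKM or more), while the groups of Slc5a3 overlap throughout.

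IRI was compared with control within each model and day to ask which of these genes changed, and a gene was called at a Benjamini-Hochberg adjusted p under 0.05 over all genes with a fold of at least 2. In the mild model none of the 8 genes was called on day 1 (1.64% of all genes were called) and none on day 3 (4.07%). At an adjusted p under 0.05 without the fold, limma listed 1 of 8 and 2 of 8. At an unadjusted p under 0.05 it listed 3 of 8 and 5 of 8 (all genes: 3714 of 14238 and 4453 of 14247). In the severe model Miox and Slc5a11 fell and Sgk1 rose on day 1, 3 of 8 genes (23.1%), and Miox and Slc6a12 fell on day 3, 2 of 8 genes (21.3%). The shares in the severe model lie near the background of all genes, so the group as a whole was not set apart by its number of changes. The median log2 difference of the members was 0.03 on day 1 and -0.16 on day 3 of the severe model, against 0.24 and 0.16 for all genes.

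**Figure D2:**
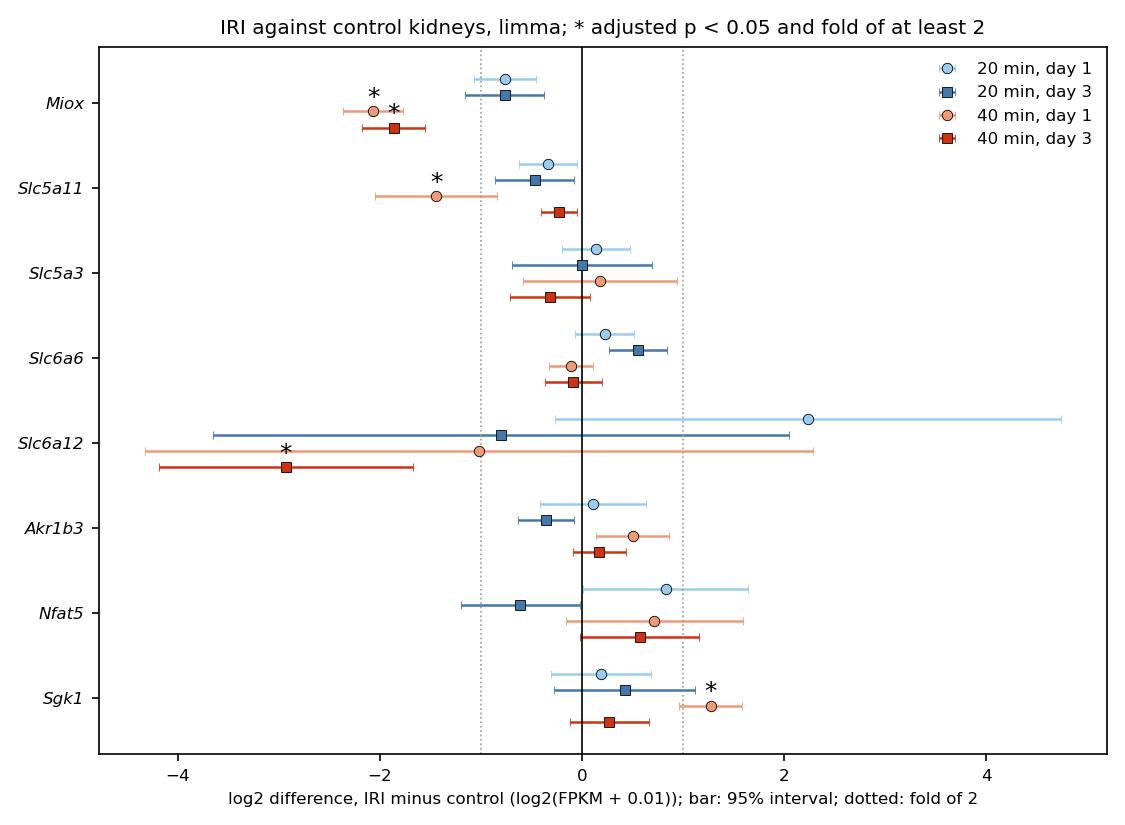
Log2 difference, IRI minus control, from limma for each gene in the 4 combinations of model and day; bars are 95% intervals, dotted lines a fold of 2, and stars mark adjusted p under 0.05 with a fold of at least 2. The 5 stars stand on Miox (severe model, both days), Slc5a11 and Sgk1 (severe model, day 1) and Slc6a12 (severe model, day 3).

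Miox encodes myo-inositol oxygenase, which commits inositol to breakdown. Control kidneys of the severe model held 1001 FPKM at the lowest, 1209 at the median and 1396 at the highest on day 1, and their IRI partners held 243, 267 and 423 FPKM. No IRI kidney reached the lowest control, and Miox fell 4.19-fold (log2 difference -2.07, standard error 0.14, limma adjusted p = 8.47e-08). On day 3 the controls held 1084, 1211 and 1386 FPKM (lowest, median, highest) and the IRI kidneys 249.7, 339 and 454 FPKM. Again the groups did not overlap, and Miox fell 3.64-fold (log2 difference -1.86, standard error 0.14, limma adjusted p = 2.75e-07). The left kidney was lower in 6 of 6 mice on each day (exact sign-flip test over mice, two-sided, p = 0.0313, the smallest that 6 pairs allow). Without replicate 6, the day 1 difference was -2.23.

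In mild IRI the same direction was present at a smaller size. Day 1 mild IRI kidneys held 454, 712 and 870 FPKM of Miox (lowest, median, highest) against 1045, 1168 and 1348 FPKM in controls, and day 3 kidneys held 365.5, 642 and 831 FPKM against 831, 1047 and 1262 FPKM. The groups touched on neither day. The log2 difference was -0.77 on both days (limma adjusted p = 0.0129 on day 1 and 0.0115 on day 3), under the fold of 2, and the left kidney was lower in 6 of 6 mice each time. On day 1 the adjusted p passed 0.05 without mouse 2 (0.0587) or mouse 4 (0.0691). The mild kidney with the highest injury markers on each day (replicate 3 on day 1, 870 FPKM; replicate 4 on day 3, 1155 FPKM) was also the one with the least Miox.

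The severe change was larger than the mild change. The difference of log2 fold changes, 40 minus 20 minutes, was -1.30 on day 1 (standard error 0.20, limma adjusted p = 6.76e-05) and -1.10 on day 3 (standard error 0.24, limma adjusted p = 0.00149). Without replicate 6 the day 1 difference was -1.47. Between days there was no detectable further change in Miox, with a day 3 minus day 1 difference of 0.20 (95% interval -0.22 to 0.63; 0.37 without replicate 6, limma adjusted p = 0.157) in the severe model and of 0.00 (95% interval -0.49 to 0.49) in the mild model. Right kidneys of the severe and the mild model were not detectably apart in Miox on day 1 (log2 difference 0.02, 95% interval -0.20 to 0.23). On day 3 the severe controls were higher by 0.26 with overlapping kidneys (95% interval 0.05 to 0.47, limma adjusted p = 0.132 over all genes), a gap that is part of the day 3 difference between models.

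Miox is a proximal tubule gene, and markers of that segment moved with it. Of 8 early segment markers (Slc5a2, Slc5a12, Slc34a1, Slc22a6, Lrp2, Cubn, Slc7a7 and Slc7a8), 6 fell on day 1 and 5 on day 3 of the severe model, with medians of -1.36 and -1.25. Their summed level was 631 to 1173 FPKM in severe IRI kidneys of day 1 and 841 to 1258 FPKM on day 3, against 2016 to 2609 and 2136 to 2463 FPKM in the controls, and none of the 8 was at 0. Set against the mean log2 level of these 8 markers, Miox stood 3.25 ± 0.25 higher in severe day 1 controls and 2.46 ± 0.25 higher in the IRI kidneys (SD, n = 6), with no overlap (2.04 to 2.69 against 2.89 to 3.58). On day 3 it stood 3.14 ± 0.09 and 2.29 ± 0.18 higher, again without overlap. In mild IRI on day 1 it stood 3.14 ± 0.14 higher in controls and 2.61 ± 0.24 higher in the IRI kidneys, without overlap (2.22 to 2.88 against 2.93 to 3.37). In mild IRI on day 3, the position of Miox against the markers was 2.86 ± 0.35 against 2.92 ± 0.10 in controls, with overlapping kidneys. The part of the segment's loss in the Miox values was not tested.

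**Figure D3:**
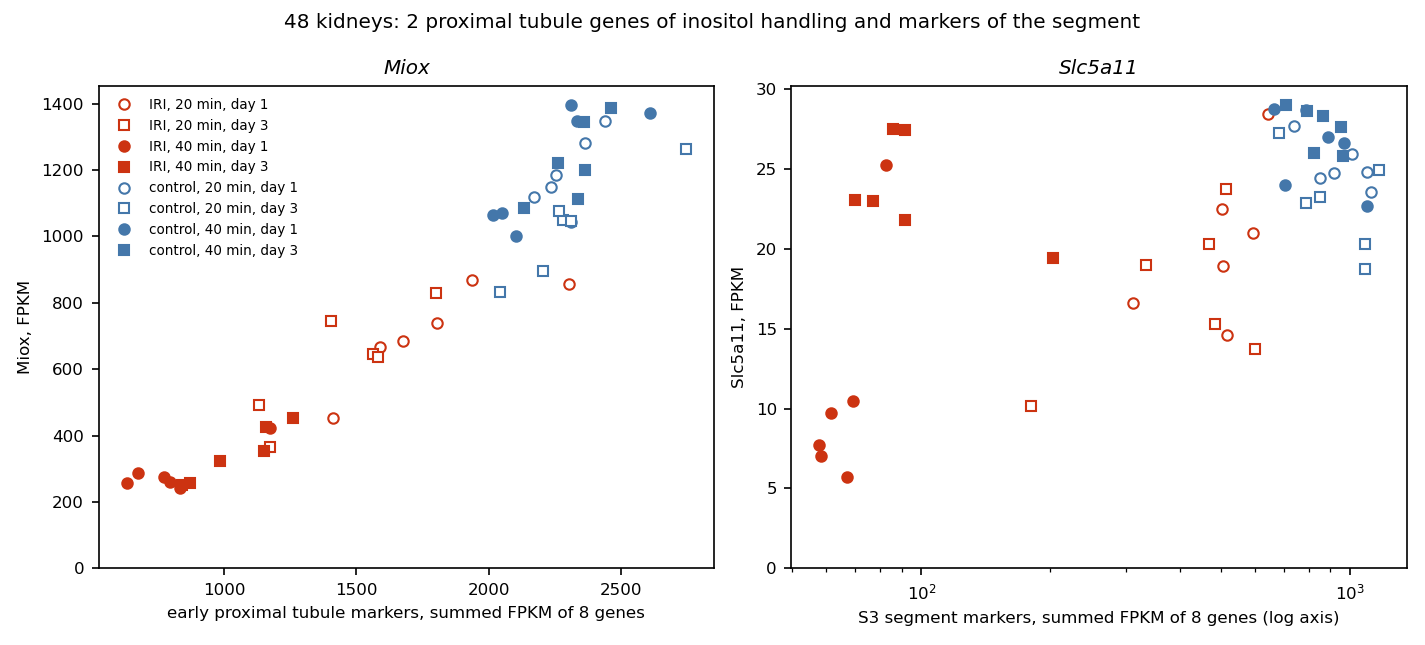
Miox against the summed FPKM of 8 early proximal tubule markers (left, linear axes) and Slc5a11 against that of 8 S3 segment markers (right, logarithmic horizontal axis) in 48 kidneys; red is IRI, blue control, open symbols the 20 minute and filled the 40 minute model, circles day 1 and squares day 3. Miox follows its markers across kidneys. In IRI kidneys on day 3 of the severe model Slc5a11 lies at 19.4 to 27.5 FPKM. The S3 markers lie there at 70.0 to 202 FPKM, against 710 to 963 FPKM in controls. Which segment holds Slc5a11 was not tested.

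Slc5a11 encodes SMIT2, a sodium and myo-inositol cotransporter of the luminal membrane of the proximal tubule. It fell on day 1 of the severe model and was not called on day 3. Controls of day 1 held 22.7, 26.8 and 28.7 FPKM (lowest, median, highest) and IRI kidneys 5.73, 8.72 and 25.3 FPKM. Apart from 1 kidney, the IRI kidneys lay at 10.5 FPKM or less, below all controls, and the highest was replicate 6, the kidney with fewer injury markers. Slc5a11 fell 2.72-fold (log2 difference -1.44, standard error 0.28, limma adjusted p = 0.000659), and the difference without replicate 6 was -1.71 (limma adjusted p = 3.78e-06).

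By day 3 the severe IRI kidneys held 19.4, 23.0 and 27.5 FPKM of Slc5a11 (lowest, median, highest) against 25.8, 27.95 and 29.02 FPKM in controls. Of the 6 IRI kidneys, 4 were still below all controls, but the log2 difference was only -0.23 (standard error 0.08, limma adjusted p = 0.0322), under the fold of 2. The difference between days was itself past the threshold, with a day 3 minus day 1 value of 1.21 (standard error 0.31, limma adjusted p = 0.0150), and without mouse 6 of day 1 it was 1.48 (limma adjusted p = 4.29e-06). In mild IRI, Slc5a11 was 14.6 to 28.4 FPKM on day 1 and 10.2 to 23.7 FPKM on day 3 against 23.5 to 27.6 and 18.7 to 27.2 FPKM in controls, the groups overlapped, and neither difference passed (-0.34 and -0.47, limma adjusted p = 0.132 and 0.0968).

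Markers of the S3 segment, the last part of the proximal tubule, were low on both days. All 8 (Slc7a13, Slc22a13, Slc22a7, Acox2, Cyp7b1, Serpina1f, Aadat and Slc5a8) fell on both days of the severe model, with a median of -4.20 on day 1 and -3.67 on day 3. Against their mean log2 level Slc5a11 stood at -1.54 ± 0.24 in severe day 3 controls and at 2.17 ± 0.99 in the IRI kidneys (SD, n = 6), with 0.29 as the lowest IRI value and -1.21 as the highest control. Which part of the proximal tubule holds Slc5a11 was not tested, and it was not set against the early segment markers. The plot of Slc5a11 against these markers shows the 6 severe day 3 IRI kidneys near or below the controls in Slc5a11 and to their left in the markers. Severe IRI lowered Slc5a11 more than mild IRI on day 1 (difference of fold changes -1.10, standard error 0.32, limma adjusted p = 0.0129, and -1.37 without severe replicate 6) and not detectably so on day 3 (0.24, 95% interval -0.19 to 0.67).

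**Figure D4:**
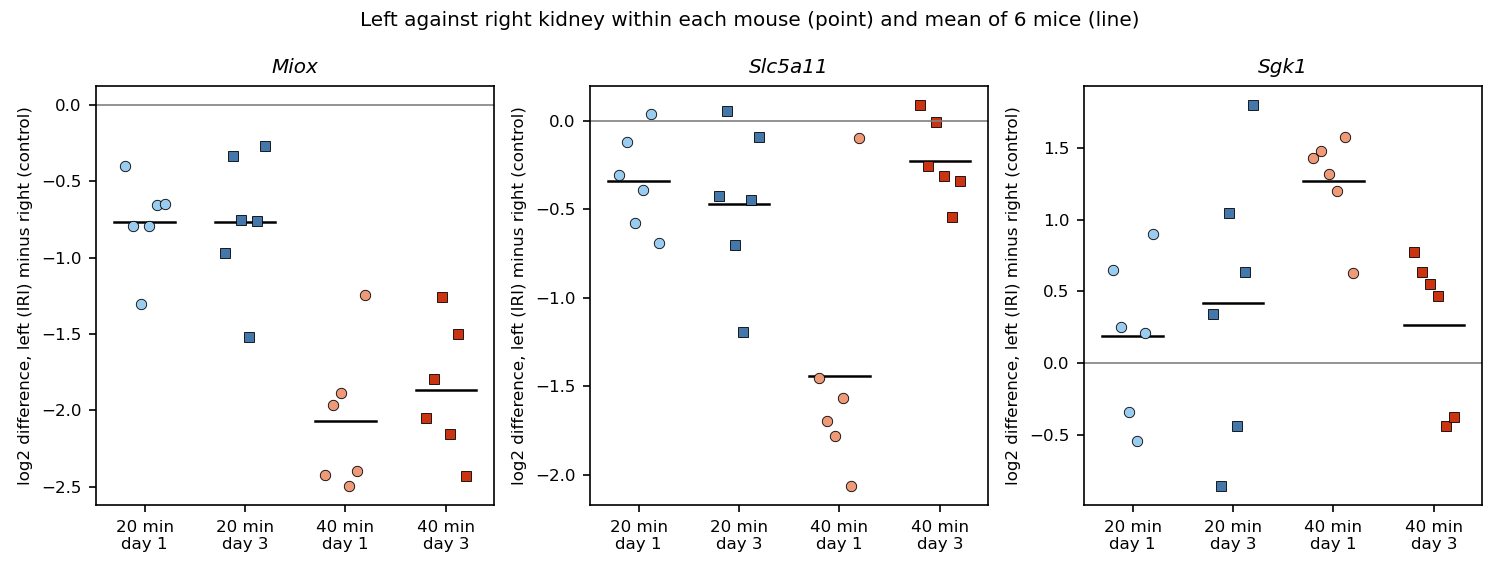
Log2 difference, left (IRI) minus right (control) kidney, within each of 6 mice per model and day for Miox, Slc5a11 and Sgk1; points are mice, lines the mean. All 24 mice lie below 0 for Miox; for Slc5a11, 1 severe day 1 mouse lies near 0 and the severe day 3 mice lie between -0.54 and 0.09; Sgk1 is above 0 in all 6 severe day 1 mice.

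Slc5a3 encodes SMIT1, the myo-inositol carrier that NFAT5 drives under hypertonic stress. It was not called against control in either model on either day. The IRI kidneys of the 4 combinations ranged from 11.4 to 39.6 FPKM and the controls from 11.5 to 45.6 FPKM, the groups overlapped in each comparison, and the log2 differences were 0.14, 0.18, 0.00 and -0.32 (mild day 1, severe day 1, mild day 3 and severe day 3; limma adjusted p = 0.601, 0.694, 0.999 and 0.152). Their 95% intervals reached from -0.72 to 0.94, so they did not include a fold of 2 in either direction, and smaller changes within them were not detectable. Slc5a3 lies on chromosome 16 (GRCm38, 92058322 to 92087473, plus strand) inside the interval of Mrps6 (92058270 to 92112227, plus strand), and reads of shared exons could have gone to either gene. Across the 48 libraries Mrps6 was also the gene most like it (Pearson r = 0.829).

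The spread of Slc5a3 among kidneys was wide, and in control kidneys it followed markers of the medulla. Control kidneys of severe day 1 held 12.05, 12.6, 13.1, 23.9, 24.0 and 45.6 FPKM, and the highest (replicate 3) also had the highest summed level of 6 medulla markers (Slc14a2, Aqp4, Slc4a11, Fxyd4, Cldn8 and Bst1) among controls, 104.7 FPKM. Over the 24 control kidneys the log2 level of Slc5a3 followed the log2 marker sum with Pearson r = 0.96 and Spearman rho = 0.95 (permutation p = 1e-05 each, the smallest that 100000 permutations give; adjusted p = 4e-05 over 4 relations), with r = 0.94 without the 2 kidneys farthest from the median sum. Within the 4 control groups r was 0.80 to 0.99. In IRI kidneys the relation was not shown (r = 0.30, rho = 0.26, permutation p = 0.149 and 0.220, n = 24), and within groups it ran from -0.05 to 0.97. The relation was noticed after the values had been seen, so the permutation p-values of the 4 relations are a description only. Fxyd4 and Cldn8, which are also expressed in cortical collecting duct, made up 35.3% and 41.1% of the marker sum. Slc14a2, which is also on the tonicity response list used below, made up 6.99% and ranged from 0 to 20.96 FPKM over the 48 kidneys. These are shares of the level and not of the spread. Within the 4 control groups the SD was 2.33 to 6.83 FPKM for Slc14a2, 1.17 to 7.33 FPKM for Fxyd4 and 2.09 to 4.41 FPKM for Cldn8. Bst1 made up 7.11% of the sum, and on day 3 of the severe model its mean was 17.1 FPKM in IRI kidneys against 2.06 FPKM in controls. The sum was thus made up differently in those IRI kidneys, and the relation without Bst1 was not tested. How much medulla each piece of cortex held was not tested.

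**Figure D5:**
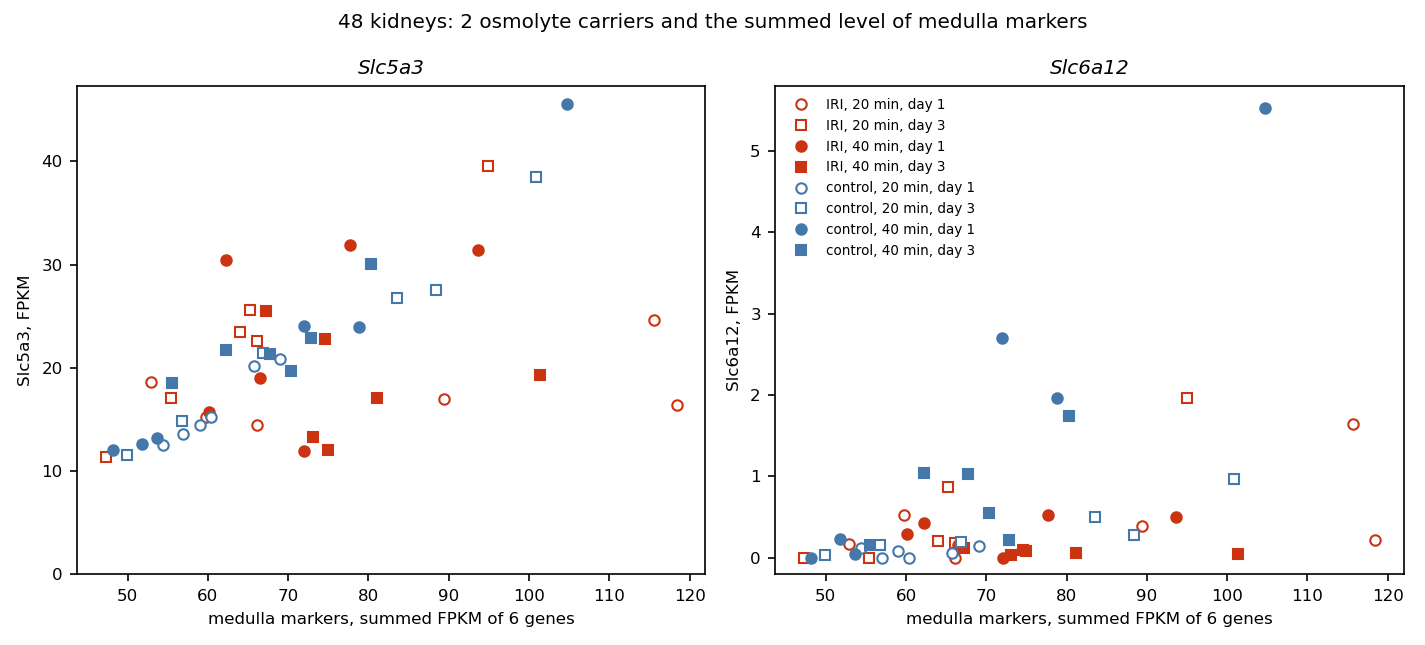
Slc5a3 (left) and Slc6a12 (right) in FPKM against the summed FPKM of 6 medulla markers in 48 kidneys (linear axes); red is IRI, blue control, open symbols the 20 minute and filled the 40 minute model, circles day 1 and squares day 3. Control kidneys rise along a line in the left panel up to 45.6 FPKM at a marker sum of 104.7 FPKM; Slc6a12 is near 0 in most kidneys.

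Slc6a12 encodes BGT1, the betaine carrier, and was close to the limit of detection. On day 3 of the severe model the controls held 0.154, 0.793 and 1.75 FPKM (lowest, median, highest) and the IRI kidneys 0.0311, 0.0723 and 0.123 FPKM, without overlap. These values correspond to about 130 estimated read pairs over 6 control kidneys and 15 over 6 IRI kidneys. The log2 difference was -2.93 (standard error 0.58, limma adjusted p = 0.000814) with a pseudocount of 0.01 FPKM and -0.67 with a pseudocount of 1 FPKM, so the fold is not fixed by the data. The call was lost with that pseudocount, with all 8 groups in 1 fit (adjusted p = 0.0506) and with the top transcript alone (adjusted p = 0.230). The left kidney was lower in 6 of 6 mice. The 6 medulla markers went both ways in these kidneys. Their summed level was 67.2 to 101.4 FPKM in IRI and 55.5 to 80.3 FPKM in control kidneys, of which Bst1 rose from 2.06 to 17.1 FPKM (log2 difference 3.13, limma adjusted p = 2.69e-07) and Fxyd4 had means of 19.9 FPKM in controls and 29.99 FPKM in IRI kidneys (0.59, a fold under 2). Aqp4 fell, as Slc6a12 did, from 5.45 to 1.68 FPKM (-1.73, limma adjusted p = 0.000172), and Cldn8 was lower at a fold under 2 (-0.63, limma adjusted p = 8.25e-05). The part of these markers in the Slc6a12 values was not tested.

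In the other 3 comparisons Slc6a12 was called in none. Day 1 controls of the severe model ran from 0 to 5.52 FPKM, and the highest was replicate 3, the kidney that also led in Slc5a3 and in medulla markers. Over the 24 controls Slc6a12 followed the medulla marker sum with r = 0.71 and rho = 0.73 (permutation p = 0.00011 and 0.0001, adjusted p = 0.00022 over the 4 relations), 0.65 without the 2 farthest kidneys, and 0.27 to 0.92 within groups. In IRI kidneys r was 0.41 and rho 0.24 (permutation p = 0.0481 and 0.262, adjusted p = 0.0642). Among the genes most like Slc6a12 across the 48 libraries were Aqp4 (r = 0.742), a water channel of the inner medullary collecting duct, and Slc5a3 (r = 0.739).

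Slc6a6 encodes the taurine carrier TauT. Mild IRI kidneys of day 3 held 69.0, 106.8 and 134 FPKM (lowest, median, highest) against 61.5, 71.1 and 76.0 FPKM in controls. Of the 6 IRI kidneys, 5 lay above all controls, and the log2 difference was 0.56 (standard error 0.13, limma adjusted p = 0.0128), under the fold of 2. The sixth, at 69.0 FPKM, was replicate 4, the kidney with the most injury markers in its group. In mild IRI on day 1 the difference was 0.22 (limma adjusted p = 0.313), and in severe IRI it was -0.11 on day 1 and -0.09 on day 3 (limma adjusted p = 0.378 and 0.596).

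The right kidneys of the 2 models differed in Slc6a6, a comparison added after the values had been seen. Among control kidneys none of the 8 genes was called between models on day 1 (0.452% of all genes were called) or on day 3 (0.919%). At an unadjusted p under 0.05 limma listed 1 of 8 and 4 of 8 (all genes: 2573 of 14158 and 3044 of 14144). Yet the controls of the severe model held 82.8 to 123 FPKM of Slc6a6 on day 1 and 87.9 to 120.2 FPKM on day 3, and those of the mild model 62.1 to 73.1 and 61.5 to 76.0 FPKM. All 6 severe controls lay above all 6 mild controls on each day (log2 differences 0.54 and 0.56, limma adjusted p = 0.0066 and 0.00145; exact permutation test over kidneys, two-sided, p = 0.00216, the smallest for 6 against 6). The difference of fold changes between models on day 3, -0.64 (standard error 0.19, limma adjusted p = 0.0148), therefore contains a difference between control kidneys. Left kidneys of day 3 held 69.0 to 134 FPKM in mild and 75.3 to 133 FPKM in severe IRI (log2 difference -0.08, 95% interval -0.44 to 0.28). The summed level of 7 collecting duct markers was also apart between the control groups, at 365 to 464 FPKM in severe and 222 to 328 FPKM in mild controls of day 1 and of 363 to 422 against 247 to 339 FPKM on day 3. Most of that gap was Aqp2, the only one of the 7 called (192.5 against 66.7 FPKM on day 1 and 180 against 86.7 FPKM on day 3). Avpr2 was higher at a fold under 2 on both days (0.66 and 0.62) and Aqp3 on day 1 (0.53), while Hsd11b2, Scnn1g, Atp6v1g3 and Fxyd4 did not pass on either day (-0.34 to 0.15). The part of these markers in the Slc6a6 values was not tested.

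Akr1b3 encodes aldose reductase, which turns glucose into the osmolyte sorbitol. On day 1 of the severe model the IRI kidneys held 30.03, 52.8 and 60.9 FPKM (lowest, median, highest) and the controls 27.2, 34.4 and 41.1 FPKM. All IRI kidneys but replicate 6 lay above all controls, and the left kidney was higher in 6 of 6 mice. The log2 difference of 0.50 (standard error 0.17, limma adjusted p = 0.0214) did not reach a fold of 2. It was 0.57 without replicate 6 (limma adjusted p = 0.00174) and 0.28 once every library was scaled to the same median (limma adjusted p = 0.180). In the other combinations the differences were 0.11 (mild day 1), -0.35 (mild day 3) and 0.17 (severe day 3), with limma adjusted p of 0.812, 0.0754 and 0.250. Replicate 3 of the mild day 1 IRI kidneys held 79.6 FPKM where the other 5 held 24.4 to 34.5 FPKM, and it was the mild day 1 kidney with the most injury markers. Without that mouse the mild day 1 difference was -0.12 (limma adjusted p = 0.540). On day 3 the difference of fold changes between models was 0.52 (standard error 0.18, limma adjusted p = 0.0323). With mouse as a block, which the labels allow, the adjusted p was 0.0825, and it also missed 0.05 after median scaling (0.0865) and with all 8 groups in 1 fit (0.126).

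Nfat5 itself was measured at low and uneven levels. Day 3 IRI kidneys of the severe model held 4.16, 8.53 and 11.2 FPKM (lowest, median, highest) and those of the mild model 1.93, 3.64 and 4.96 FPKM. Of the 6 severe kidneys, 5 lay above all mild kidneys, and Nfat5 was 2.12-fold higher (log2 difference 1.09, standard error 0.29, limma adjusted p = 0.0126). The fold fell below 2 with a pseudocount of 1 FPKM (0.90), after median scaling (0.92) and without mild replicate 6 (0.92) or severe replicate 4 (0.97). Against their own controls (3.39, 5.11 and 7.11 FPKM in the severe and 3.05, 5.86 and 7.84 FPKM in the mild model) the differences were 0.57 and -0.61, with overlapping kidneys and limma adjusted p of 0.0903 and 0.144. The difference of fold changes on day 3 was 1.18 (standard error 0.40, limma adjusted p = 0.0291), and with mouse as a block the adjusted p was 0.0640. It also missed 0.05 after median scaling (0.0567), with all 8 groups in 1 fit (0.0778) and with the top transcript alone (0.158). The same held without mild mouse 1, 5 or 6 or severe mouse 1, 3 or 4 (limma adjusted p = 0.0537 to 0.0897). On day 1 the differences were 0.83 (mild) and 0.72 (severe), with limma adjusted p of 0.186 and 0.149. A total of 7 transcripts shared the Nfat5 signal, and 6 of them were listed at 0 in at least 1 library, so that their split is uncertain.

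Sgk1 encodes the serum and glucocorticoid regulated kinase, which corticosteroids and hypertonic stress induce and which acts on sodium and solute carriers. Severe IRI kidneys of day 1 held 72.1, 83.1 and 119.9 FPKM (lowest, median, highest) against 31.4, 32.7 and 48.1 FPKM in controls. The groups did not overlap, the left kidney was higher in 6 of 6 mice, and Sgk1 rose 2.41-fold (log2 difference 1.27, standard error 0.14, limma adjusted p = 8.13e-06). The difference was 1.40 without replicate 6 and 1.05 after median scaling. On day 3 the IRI kidneys still held 54.7, 75.9 and 104 FPKM, but their controls held 47.5, 60.7 and 98.8 FPKM, the groups overlapped, and the difference of 0.27 did not pass (limma adjusted p = 0.222). The change between days passed, at -1.003 for day 3 minus day 1 (standard error 0.24, limma adjusted p = 0.0122; -1.13 without mouse 6 of day 1). The controls of day 3 were themselves apart between models, 0.93 higher on the log2 scale in the severe model with overlapping kidneys (limma adjusted p = 0.0575). Group means of the severe model were 88.6 and 77.3 FPKM in IRI kidneys on days 1 and 3 against 36.6 and 64.9 FPKM in controls.

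In mild IRI Sgk1 held 44.8, 49.5 and 70.2 FPKM on day 1 and 23.0, 44.0 and 70.9 FPKM on day 3 against 24.0, 43.8 and 79.1 and 19.7, 30.2 and 64.2 FPKM in controls. The groups overlapped on both days and neither difference passed (0.19 and 0.42, limma adjusted p = 0.633 and 0.408). Severe and mild fold changes differed on day 1 (1.08, standard error 0.28, limma adjusted p = 0.00568; 1.21 without severe mouse 6) and not detectably on day 3 (-0.15, 95% interval -0.95 to 0.65). Compared directly, severe IRI kidneys of day 1 all lay above all mild ones (log2 difference 0.76, limma adjusted p = 0.0014; 0.80 without severe replicate 6), a difference under the fold of 2. Sgk1-202, the transcript whose start carries the glucocorticoid element shown above, made up 84.5% of the Sgk1 level over the 48 libraries, 86.0% in severe day 1 controls and 84.9% in the IRI kidneys. Sgk1-201 gave 12.1%, with means of 3.56 FPKM in those controls and 9.70 FPKM in the IRI kidneys.

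Comparisons of IRI kidneys between models called 2 of 8 genes on day 1 (13.7% of all genes) and 1 of 8 on day 3 (12.1%). On day 1 Miox was 2.44-fold lower (log2 difference -1.29, limma adjusted p = 0.000208) and Slc5a11 2.06-fold lower (-1.05, limma adjusted p = 0.0159) in severe IRI. Without severe replicate 6 these were -1.40 and -1.32. The Slc5a11 fold stood so near 2 that it fell below it with a pseudocount of 1 FPKM (-0.96) or without mild replicate 5 or severe replicate 2, 3 or 5 (-0.98 to -0.90). On day 3 Nfat5 was the gene called, while Miox (-0.84, limma adjusted p = 0.00939) had a fold under 2 and reached it after median scaling (-1.004). Sgk1 (0.78, limma adjusted p = 0.0349) and Slc5a11 (0.52, limma adjusted p = 0.0454) were higher in severe IRI, also under the fold. For Slc5a11 this reversed the direction of day 1, with means of 23.7 FPKM in severe and 17.0 FPKM in mild IRI. Day 3 controls of the severe model were also higher, by 0.28 in Slc5a11 (limma adjusted p = 0.0616) and by 0.93 in Sgk1 (limma adjusted p = 0.0575). The fold changes of Sgk1 did not differ detectably between models on day 3 (-0.15, limma adjusted p = 0.804). Differences of fold changes between models passed for 3 of 8 genes on day 1 (29.8% of all genes) and 4 of 8 on day 3 (29.4%, 2 of 8 with mouse as a block). Between days they passed for none in the mild model (0.0841%) and for 2 of 8, Sgk1 and Slc5a11, in the severe model (13.9%). At an unadjusted p under 0.05 the mild model had 1 of 8 (all genes: 2013 of 14271).

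Genes of the neighbouring pathways were read from lists chosen for their function. In the severe model 15.7% of all genes rose and 7.39% fell on day 1, and 15.3% rose and 5.98% fell on day 3, and each list's counts stand against these shares. Around inositol supply and phosphorylation, 1 of 13 genes was called on day 1 of the severe model (higher) and none on day 3, with medians of 0.05 and -0.03 against 0.24 and 0.16 for all genes. Itpkc, a kinase of inositol trisphosphate, rose (log2 difference 1.28, standard error 0.13, limma adjusted p = 2.46e-06), while Inpp5a, which removes a phosphate from it, and Ippk, which makes inositol hexakisphosphate, were higher by 0.61 and 0.79 at a fold under 2. Isyna1, the synthase that makes inositol from glucose phosphate, held 5.41 FPKM in mild day 1 IRI kidneys and 3.28 FPKM in controls (0.71, limma adjusted p = 0.0480), also under the fold.

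The list of glucuronate, xylulose and polyol enzymes had 3 of 9 genes lower and 1 higher on day 1 of the severe model and 1 lower on day 3 (medians -0.64 and -0.25). Sord, the sorbitol dehydrogenase that acts after aldose reductase, fell by 1.82 (log2) on day 1 (216 against 741 FPKM, limma adjusted p = 6.2e-07) and by 1.03 on day 3 (limma adjusted p = 1.22e-06). Khk, ketohexokinase, and Dcxr, the xylulose reductase, fell by 1.58 and 1.38 on day 1 (limma adjusted p = 6.31e-06 and 0.000462). Dcxr was named after its value had been seen. Ugdh, which makes UDP-glucuronate from UDP-glucose, rose by 1.58 (limma adjusted p = 1.07e-05). In the mild model no gene of the list was called, and Xylb, the xylulose kinase, was lower by 0.90 on day 3 (limma adjusted p = 0.000307) at a fold under 2.

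Of 14 genes of betaine, taurine and glycerophosphocholine handling, 6 fell on day 1 and 3 on day 3 of the severe model, and none rose (medians -0.77 and -0.49). Csad, which makes the taurine precursor hypotaurine, went from 131 to 23.1 FPKM on day 1 (log2 difference -2.51, standard error 0.13, limma adjusted p = 1.25e-08) and from 129 to 33.4 FPKM on day 3 (-2.03, limma adjusted p = 2.61e-06). Dmgdh and Sardh, which strip methyl groups from the products of betaine, fell by 1.64 and 1.41 on day 1, and Bhmt2, a methyltransferase, fell by 2.24. In mild IRI none of the 14 was called on either day.

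Of 9 genes of the tonicity response, 6 rose on day 1 of the severe model, 2 rose and 1 fell on day 3, and 2 (Hspa1a and Hspa1b, heat shock chaperones) rose on day 1 of the mild model. The medians were 1.43 and 0.54 in the severe model. The genes that moved also respond to other stresses. On day 1 of the severe model the 4 with the smallest adjusted p were S100a4 (1.55, limma adjusted p = 9.04e-06), a calcium-binding protein of fibroblasts and leukocytes, Cryab (1.56, limma adjusted p = 8.69e-05), a small chaperone, Slc38a2 (1.22, limma adjusted p = 0.000283), a neutral amino acid carrier, and Ccl2 (2.37, limma adjusted p = 0.00262), a chemokine. Aqp2, the vasopressin-regulated water channel, fell by 1.18 on day 3 (limma adjusted p = 0.00131). Macrophage markers rose in the same kidneys (6 of 9 genes on day 1 and 8 of 9 on day 3, summed levels 100.5 to 604 and 256 to 656 FPKM against 46.5 to 103 and 34.4 to 55.9 FPKM in controls), and their part in these values was not tested.

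Among 15 genes of the corticosteroid response and the SGK family, 4 rose and 1 fell on day 1 of the severe model, and 2 rose on day 3 (medians -0.18 and 0.09). Fkbp5, a chaperone of the glucocorticoid receptor, rose by 1.62 on day 1 (84.5 against 26.7 FPKM, limma adjusted p = 2.79e-05) and by 2.45 on day 3 (143 against 25.1 FPKM, limma adjusted p = 1.53e-06), a day on which Sgk1 was not called. The other gene that rose on day 3 was Zbtb16 (3.00, limma adjusted p = 6.2e-05), a zinc finger factor induced by glucocorticoids. Tsc22d3, known as GILZ, rose by 1.49 on day 1 (limma adjusted p = 2.68e-05). Ndrg1, a phosphorylation target of the SGK kinases, fell by 1.01 on day 1 of the severe model (limma adjusted p = 2.44e-05) and rose by 1.01 on day 3 of the mild model (limma adjusted p = 0.000855).

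Among 14 related carriers and reductases, 1 rose and 5 fell on day 1 of the severe model, and 1 rose and 4 fell on day 3 (medians -0.58 and -0.62). Akr1b8, a close relative of Akr1b3, rose by 5.59 on day 1 and by 4.50 on day 3 of the severe model (1.15 to 55.4 and 1.24 to 28.9 FPKM, limma adjusted p = 2.89e-09 and 1.89e-09). Reads shared between these relatives could be split between them, so their levels are uncertain to that extent. Carriers of the proximal tubule fell: Slc5a2 (the glucose carrier SGLT2) by 1.02 and 1.53 on days 1 and 3, Slc5a8 (a monocarboxylate carrier) by 3.35 and 1.83, and Slc6a20b (a carrier of the proline family) by 2.52 and 1.96. In mild IRI 1 rose and 2 fell on day 3. Slc5a10, the mannose and fructose carrier SGLT5, rose from 67.7 to 185 FPKM (1.35, limma adjusted p = 0.00296), and Slc6a20b fell by 1.04 (limma adjusted p = 0.000696).

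The genes whose log2 levels ran most closely with each member over the 48 libraries, among 11833 genes averaging 1 FPKM or more, are given as a description; the libraries share the injury as their main difference. Miox ran with Slc34a1 (r = 0.983), the phosphate carrier of the proximal tubule, Pcbd1 (0.976) and Bdh2 (0.973). Slc5a11 ran with Mansc4 (0.905). For Slc5a3 the next genes after Mrps6 were Irx2 (0.825) and Sim2 (0.810). Slc6a6 ran with Acnat2 (0.820), Ppp2r3a (0.804) and Map3k5 (0.80), Akr1b3 with Arhgap44 (0.777), Dhx37 (0.772) and Acbd3 (0.771), and Sgk1 with Vasn (0.749), Itprip (0.744) and Fam117b (0.737). Nfat5 had the weakest partners (Afdn, 0.633). Between members, Miox and Slc5a11 had r = 0.69, Slc5a3 and Slc6a12 0.74, and Miox and Sgk1 -0.51.

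Most members were carried by 1 transcript. Miox-201 (15: 89334398 to 89337015) made up 99.6% of the Miox level, Akr1b3-201 (6: 34303934 to 34317478, minus strand) 99.7% of Akr1b3 and Slc6a6-201 (6: 91684053 to 91759066) 98.2% of Slc6a6. Slc5a11-207 (7: 123235620 to 123273203) made up 71.3% of Slc5a11, with Slc5a11-201 at 14.5% and Slc5a11-205 at 13.6%. In severe day 1 kidneys all 3 moved the same way, from 19.3 to 7.60, from 3.51 to 1.65 and from 3.36 to 1.66 FPKM (means of 6 kidneys, controls first), and on day 3 they went apart. Slc5a11-207 had means of 20.0 FPKM in controls and 15.7 FPKM in IRI kidneys, without overlap (17.8 to 21.8 against 13.0 to 17.7 FPKM), while Slc5a11-201 had 3.91 and 3.88 FPKM and Slc5a11-205 had 3.51 and 4.09 FPKM. The distance of Slc5a11 from control on day 3 therefore depended on the transcript. In 1 mild day 3 IRI kidney Sgk1-202 was listed at 0.0422 FPKM while Sgk1-201 reached 22.2 FPKM, a split that the summed level does not show.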

How the data were processed

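RNA of renal cortex from 24 mice (48 libraries, 8 groups of 6 kidneys) was measured. Per the study's methods and the submitters' processing notes, HISAT2 2.1.0 (genome GRCm38) was used after read filtering by FastQC 0.11.7, and the authors deposited FPKM per transcript from Ballgown, normalized for transcript length and library size. Whether counting used strand is not given in the sources used here. Each of the 33953 listed transcripts exceeded 0.5 FPKM in at least 1 library (lowest maximum 0.500009), and FPKM summed to 381308 to 421059 a library, so a low gene can be missing from the table.

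Transcripts were given symbols from the GENCODE annotation of GRCm38 (33871 matched, 82 did not) and summed to 14238 genes, which with the unmatched transcripts made 14320 features. Every value column had a sample label. Genes averaging 0.01 FPKM or more over the libraries compared were tested, two-sided, with limma 3.58.1 (R 4.3.3, trend) on log2(FPKM + 0.01). Fold changes of low genes therefore depend on the added 0.01 and on kidneys at 0, and can be understated. Slc6a12 on day 3 of the mild model had the higher mean in IRI (0.538 against 0.356 FPKM) but a log2 difference of -0.80. Benjamini-Hochberg adjustment covered all tested genes, and calls required an adjusted p below 0.05 plus a fold of 2 or more (differences of fold changes by adjusted p alone). Intervals (95%) used limma's moderated degrees of freedom. Single values used exact permutations of kidneys or sign flips over mice. The spacing of low values gave a depth estimate, but only 37.2% to 51.4% of them lay within 0.1 of a whole number of reads, so no count test was run, and the estimate covers counting error only.

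The members and gene lists were chosen with earlier results of these data known. Named were all 8 members, their transcripts averaging 1 FPKM or more (for a member with none, its highest), up to 4 genes with the smallest adjusted p of each other list in the comparison described, and the 3 genes most correlated with each member, of which some are left out for brevity and another is not reported here. The labels give the left and right kidney of a mouse 1 number, so mouse was used as a block in an alternative. Deviations of kidneys of the same mouse had median correlations of 0.0035 and 0.0589 (20 and 40 minutes, day 1) and of 0.0386 and -0.0182 (day 3). Other alternatives were pseudocounts of 0.1 and 1 FPKM, no filter or one at 1 FPKM, equal-median scaling, no trend, all 8 groups in 1 fit, the top transcript per gene, and leaving out each mouse or kidney. Calculations were tested on simulated data. The rest used scipy 1.17.1, pandas 2.3.3 and numpy 2.4.6, with plots from matplotlib 3.10.9, in Python 3.11.15.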

Additional observations from a re-analysis of the deposited data

Results flagged for a closer look

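Single kidneys stood far from the other 5 of their group, by the ratio of their gap to the group's range (Dixon's test), in 7 of 64 groups of 6, where chance gives about 1 in 20, or 3.2. Replicate 6 of the severe day 1 IRI kidneys was the highest of its group in Miox (423 FPKM, next 288) and in Slc5a11 (25.3 FPKM, next 10.5). Replicate 3 of the severe day 1 controls held 45.6 FPKM of Slc5a3 (next 24.0). The other 4 were mild day 1 IRI kidneys. They were replicate 3 in Akr1b3 (79.6 FPKM, next 34.5), replicate 1 in Slc6a12 (1.64 FPKM, next 0.531) and in Sgk1 (70.2 FPKM, next 54.3), and replicate 6 in Slc6a6 (123 FPKM, next 82.4).

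Fold changes differed between the models, by limma's test of the difference, on day 1 in Miox (-1.30 on the log2 scale, 40 minus 20 minutes), Sgk1 (1.08) and Slc5a11 (-1.10), and on day 3 in Miox (-1.10), Akr1b3 (0.52), Slc6a6 (-0.64) and Nfat5 (1.18). Between days of the severe model they differed in Sgk1 (-1.003, day 3 minus day 1) and Slc5a11 (1.21).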

How the results depend on the processing

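Of 1621 alternative values of single members, none that was called changed sign, 14 lost and 1 gained the call under other settings, and 17 lost and 2 gained it when a mouse or kidney was left out. Among values that were not called, 50 changed sign under an alternative, so the direction of small uncalled differences is less certain. On day 3 of the severe model 1 of 8 members was called instead of 2 with a pseudocount of 1 FPKM, a filter at 1 FPKM (which removed Slc6a12), all 8 groups in 1 fit or the top transcript. Between models, IRI kidneys of day 1 gave 1 instead of 2 with a pseudocount of 1 FPKM (1 to 2 leaving out a kidney), and those of day 3 gave 0 instead of 1 with that pseudocount or the top transcript (0 to 1 leaving out a kidney). The difference of fold changes between models on day 3 gave 2 instead of 4 with equal-median scaling, all 8 groups in 1 fit or the replicate block, and 2 to 4 leaving out a mouse. That of day 1 gave 3 to 4. The day difference of the mild model gave 0 to 1, since Nfat5 passed without replicate 6 of day 1 (-1.77, limma adjusted p = 0.0282). The replicate block, which pairs the kidneys of a mouse, changed no other member's call. Left kidneys of different mice share only a number. Except for that, the cause of these changes was not tested.

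Counts over all genes moved more. A pseudocount of 1 FPKM gave 72 higher and 34 lower genes (170 and 63 as reported) on day 1 and 147 and 125 (333 and 247) on day 3 of the mild model, 1210 and 632 (2244 and 1055) and 1147 and 453 (2187 and 853) in the severe model, and 564 and 458 (1116 and 839) and 663 and 180 (1403 and 332) between IRI kidneys. On day 1 of the mild model the block gave 50 and 29, the top transcript 94 and 58, all groups in 1 fit 411 and 75, and leaving out a mouse from 21 and 23 (replicate 4) to 486 and 82 (replicate 6). The day difference of the mild model, 6 and 6, became 0 and 0 with the block or equal-median scaling, 0 and 1 without a filter or with the top transcript, 1 and 3 without the trend, 8 and 12 with a pseudocount of 1 FPKM, 12 and 9 with the filter at 1 FPKM, 78 and 143 with all groups, and 235 and 654 without day 1 replicate 6. That of the severe model, 814 and 1172, ran from 446 and 611 (without day 1 replicate 5) to 1502 and 2145 (without day 1 replicate 6). Between controls, 32 and 32 on day 1 became 15 and 4, 25 and 12 or 21 and 8 and 70 and 60 on day 3 became 29 and 15, 54 and 23 or 54 and 31 with the pseudocount of 1 FPKM, the filter at 1 FPKM and the replicate number as a block. Equal-median scaling moved the split to 148 and 98 and 1722 and 1433 on day 1 of the mild and severe model, 1134 and 477 between IRI kidneys of day 3, 916 and 1024 between those of day 1, 1852 and 1080 on day 3 of the severe model, 2009 and 2008 (2638 and 1621) and 2091 and 1944 (2915 and 1286) for the differences between models, and 942 and 796 between days of the severe model.

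Depth limits Slc6a12, at 0 to 128 estimated read pairs a kidney, and the split of Nfat5 between transcripts.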
